A study of Mus musculus with 4 samples.

Results

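The transcripts described here are 4 FGF ligands (Fgf4, Fgf15, Fgf17 and Fgf18) and 6 genes that ERK signalling is known to induce (Dusp6, Spry2, Spry4, Etv4, Etv5 and Egr1), measured in mouse embryonic stem (ES) cells. The 10 genes were picked by name as a pathway group, with earlier results of the same arrays known, among them the differences between KO and cKO cells. Those differences are therefore given as a description, and a call of the fit over all genes that falls on a member is counted only beside the share over all genes and supports nothing. The 10 genes have 21 probe sets that name 1 gene only, out of 18193 genes with such a probe set on the array. All 10 lay above the level (signal 77.7) under which dim genes were left out. That level was set on the mean over the 4 arrays. For Fgf18, the one member near it, the cKO mean alone (102) was above it.

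The study compared 2 KO lines, in which the X-linked gene Utx (now Kdm6a) is knocked out, with 2 cKO lines, which carry a conditional knockout allele of the same gene. UTX removes methyl groups from lysine 27 of histone H3, and conditional alleles of this kind are usually intact until a recombinase acts on them. Per the labels' protocols, all lines were kept on irradiated fibroblast feeders in medium with serum and LIF and passaged on gelatin to remove the feeders, and RNA was hybridised to 1 Mouse Genome 430 2.0 array per line. The labels do not say whether the KO lines came from the cKO lines, which part of the gene was deleted, or whether any line is more than 1 clone. With 2 lines per group, a two-sided exact permutation test of a single value cannot go below p = 0.333, and the p-values given for other genes measure only the spread between these 4 samples.

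FGFs are secreted proteins that bind receptor tyrosine kinases together with heparan sulfate. The receptors act through adaptors and RAS on the kinases RAF, MEK and ERK, and active ERK induces ETS-family transcription factors, immediate-early genes and a set of inhibitors that act back on the same cascade. In mouse ES cells FGF4, made by the cells themselves, is the main known source of ERK activity, which is needed for the cells to leave the pluripotent state, while LIF and serum in the medium can also feed into ERK.

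The targeted gene Kdm6a had a signal of 265 and 198 in KO lines 1 and 2, against 658 and 415 in cKO lines 1 and 2. The groups did not overlap, but the difference did not pass the test (log2 fold change -1.17 ± 0.27, SE, limma adjusted p = 0.0884). It passed in limma with centred arrays (adjusted p = 0.00914). With 1 array left out the log2 fold change ran between -1.50 and -0.84. A second Kdm6a probe set above the filter was at -1.14, with 153 and 132 in KO lines and 382 and 267 in cKO lines. The others, both dim, were at 0.31 and -0.29, and the mean of all its probe sets gave -0.57. The labels do not say whether these probes lie in the deleted part. Transcripts of 10 pluripotency markers, of which Fgf4 is one, were all above the filter. Signals were scaled by the authors to the same trimmed mean (500.003) on every array, and the median signal was 81.6 and 64.9 on the KO arrays, against 76.6 and 64.4 on the cKO arrays. In both groups the line 1 array thus had the higher median.

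Among the 10 genes, Fgf18 stood apart, with a mean signal 5.62-fold higher in KO than in cKO cells. Fgf17 and Spry4 were higher in both KO lines by 1.41-fold and 1.36-fold in the means, and Fgf4 by 1.19-fold. The remaining members differed little between the groups or varied as much between lines of one genotype as between genotypes. In the limma fit over all genes, 1 of the 10 (Fgf18) was called higher and 0 were called lower at an adjusted p under 0.05. At an unadjusted p under 0.05 the counts were 2 higher and 0 lower, where 5.92% of all genes tested were higher and 7.91% lower. Over all 10916 genes tested, 240 were called (2.2%), of which 69 were higher (0.632%) and 171 lower (1.57%). In 5 members (Fgf4, Fgf17, Fgf18, Spry4 and Etv4) both KO values lay above both cKO values and in 0 both lay below, where 21.4% of all genes tested had both KO values above and 21.2% had both below. The median log2 fold change of the members was 0.07, and that of all genes tested was 0.01. Because the members were chosen with these values known, nothing is read from their counts. In bulk RNA of this kind, fewer cells that make a transcript and less of it per cell cannot be told apart.

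**Figure D1:**
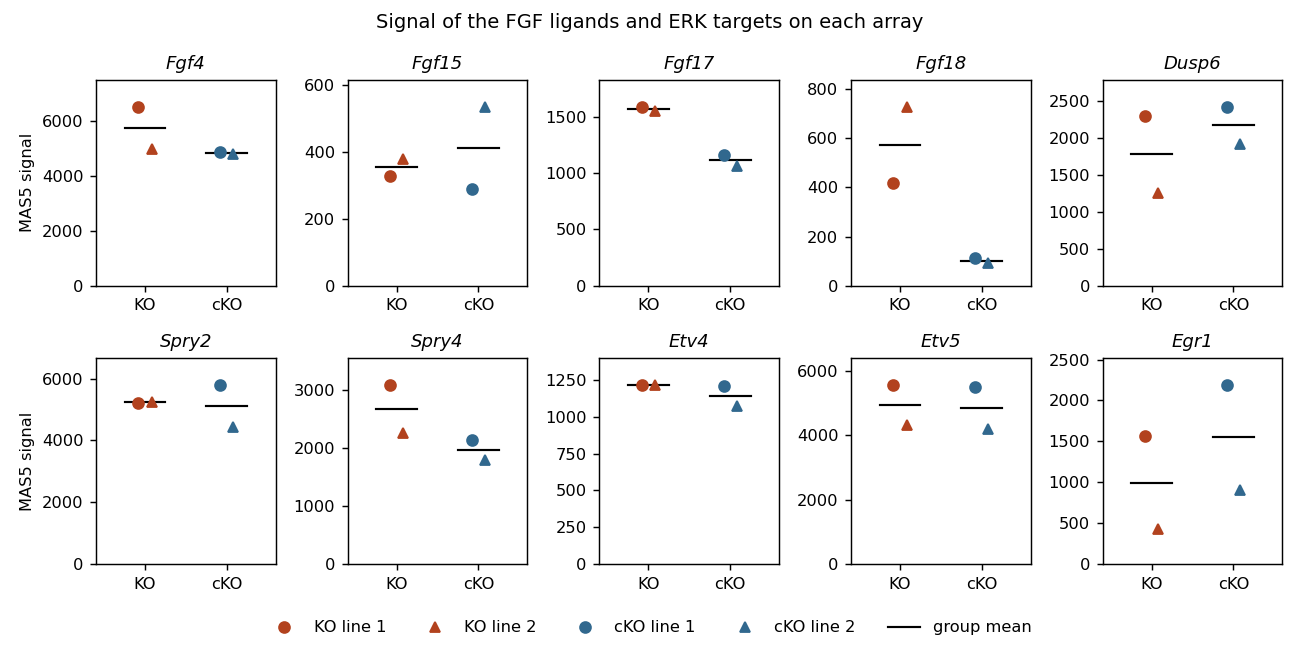
MAS5 signal (linear scale, vertical axis from 0, a separate scale for each gene) of the 10 genes on the 4 arrays. KO lines stand left of cKO lines, circles are line 1, triangles line 2 and bars the group mean (n = 2). Fgf18 is separated widely (419 and 728 against 113 and 90.9), while in Egr1 line 1 lies above line 2 in both groups.

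Of the ligands, Fgf18 and Fgf4 had a promoter entry, shown here because Fgf18 had the widest difference among the 10 genes and Fgf4 is the main ligand of ES cells. The sequences are the 250 bases before the start site, 5′ to 3′ on the strand of the gene, from RefSeq annotation of build GRCm38.p6. The Fgf18 window is chr11:33147401-33147650 on the minus strand and the Fgf4 window is chr7:144861136-144861385 on the plus strand. Capitals mark the GC box GGGCGG or its complement CCGCCC.
Fgf18: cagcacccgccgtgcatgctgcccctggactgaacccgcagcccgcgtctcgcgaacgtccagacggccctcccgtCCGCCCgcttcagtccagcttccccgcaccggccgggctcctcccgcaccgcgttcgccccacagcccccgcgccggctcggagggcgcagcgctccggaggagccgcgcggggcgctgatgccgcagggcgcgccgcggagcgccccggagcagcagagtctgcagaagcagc
Fgf4: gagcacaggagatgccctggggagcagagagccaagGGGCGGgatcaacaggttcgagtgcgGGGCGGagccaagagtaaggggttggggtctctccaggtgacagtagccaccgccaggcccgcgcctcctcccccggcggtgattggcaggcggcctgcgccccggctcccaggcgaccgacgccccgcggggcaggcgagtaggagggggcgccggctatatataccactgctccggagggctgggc
The Fgf18 window held 1 GC box, at position -174 on the other strand, and the Fgf4 window held 2, at positions -214 and -188, counted backwards from the start site. A GC box occurred in 32.7% of 32851 such windows. The G and C content was 77.2% for Fgf18 and 71.2% for Fgf4, where the median window had 52.4%. Exact matches to the ETS core CGGAAG, the AP-1 site TGANTCA and the cyclic AMP response element TGACGTCA were absent from both windows, on either strand. So were exact matches to the TATA box TATAAA, but the related letters tatatata occur in the Fgf4 window. Variants of the motifs were not searched. A match describes letters in the window and says nothing about binding.

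Fgf18, a ligand of the Fgf8 subfamily known from skeletal and lung development, had a signal of 419 and 728 in KO lines 1 and 2, against 113 and 90.9 in cKO lines 1 and 2. Both KO lines thus lay several-fold above both cKO lines, and KO line 2 was the highest of the 4. The means were 574 ± 218 in KO and 102 ± 15.9 in cKO cells (SD, n = 2 each), and the log2 fold change was 2.39 ± 0.30 (SE). With 1 array left out in turn it ran between 2.00 and 2.78, while the call was lost when the trend of variance on signal was left out of the fit. Fgf18 has a single probe set here, so no second probe set bears on this value. Line 1 minus line 2 was -0.79 in KO and 0.30 in cKO cells on the log2 scale, so the KO lines lay further apart than the cKO lines and in the opposite order.

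Fgf17, of the same subfamily and known from midbrain and cerebellar patterning, had a signal of 1593 and 1552 in KO lines, against 1162 and 1069 in cKO lines. The lines of each group lay close together and the groups did not overlap. The log2 fold change was 0.49 ± 0.15 (SE). A second Fgf17 probe set gave 702 and 640 in KO lines and 414 and 312 in cKO lines, again without overlap, with a larger log2 fold change of 0.89 ± 0.20 (SE).

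Fgf4, the autocrine ligand of ES cells, had a signal of 6516 and 4968 in KO lines, against 4879 and 4789 in cKO lines. KO line 1 was high, and KO line 2 lay just above the cKO lines. The log2 fold change of 0.24 ± 0.15 (SE) was 0.04 without KO line 1. Of its other 3 probe sets, 2 lay above the filter (0.19 and 0.28) and 1 below it (0.63), all with the same sign.

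Fgf15, the mouse counterpart of human FGF19, which is known as a hormone made by the ileum and as an embryonic ligand, had a signal of 329 and 379 in KO lines, against 288 and 535 in cKO lines. Both KO values lay between the cKO values. Its log2 fold change of -0.15 ± 0.29 (SE) turned to 0.29 without cKO line 2, the highest array. Fgf15 and Fgf4 are neighbours on chromosome 7 with 1 annotated gene and 0 protein-coding genes between them in the GRCm38.p6 gene table. They did not share an order of arrays, since KO line 1 was highest for Fgf4 and cKO line 2 for Fgf15.

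The inhibitors among the members are a phosphatase and 2 Sprouty proteins. Dusp6 and Spry2 promoters are shown to set a feedback gene whose window holds the ETS core string CGGAAG beside one whose window lacks that string. Only these exact letters were searched, and the shorter string GGAA occurs in both windows. Both are the 250 bases before the start site from the same RefSeq table (GRCm38.p6), Dusp6 at chr10:99262981-99263230 on the plus strand and Spry2 at chr14:105896820-105897069 on the minus strand. Capitals mark the ETS core CGGAAG or its complement CTTCCG.
Dusp6: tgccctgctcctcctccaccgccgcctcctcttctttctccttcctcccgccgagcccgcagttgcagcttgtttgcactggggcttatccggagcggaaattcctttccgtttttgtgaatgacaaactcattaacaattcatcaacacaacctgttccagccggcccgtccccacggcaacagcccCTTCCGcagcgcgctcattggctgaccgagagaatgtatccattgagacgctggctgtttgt
Spry2: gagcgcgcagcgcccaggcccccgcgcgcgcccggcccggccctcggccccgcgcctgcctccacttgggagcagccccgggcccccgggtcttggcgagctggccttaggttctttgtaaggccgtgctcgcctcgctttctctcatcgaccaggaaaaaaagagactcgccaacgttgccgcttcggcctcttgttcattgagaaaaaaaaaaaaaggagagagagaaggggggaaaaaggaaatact
Dusp6 held 1 ETS core, at position -62 on the other strand, in a window with 56.4% G and C. Spry2 held 0 matches to the 5 motifs in a window with 62.4% G and C. Of the member windows searched, only that of Dusp6 held the ETS core, and those of Etv5, not printed here, lacked it too. The ETS core occurred in 13.6% of the 32851 windows and the AP-1 site in 6.75%. The cyclic AMP response element occurred in 1.55% and the TATA box in 12.4%.

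Dusp6, the phosphatase that takes phosphate off ERK in the cytoplasm, had a signal of 2307 and 1262 in KO lines, against 2431 and 1920 in cKO lines. The groups overlapped, with KO line 2 the lowest array. Its log2 fold change was -0.34 ± 0.28 (SE), and it ran between -0.77 without KO line 1 and 0.09 without KO line 2.

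Spry2, a Sprouty protein that holds back signalling between receptor and RAF, had a signal of 5207 and 5255 in KO lines, against 5800 and 4419 in cKO lines. Both KO values lay between the cKO values, and the log2 fold change was 0.05 ± 0.15 (SE). Its sign turned with the mean of both probe sets (-0.33), the second of which was dim, and the value was 0.00 with centred arrays. It ran between -0.15 and 0.24 with 1 array left out.

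Spry4, a second Sprouty protein, had a signal of 3085 and 2250 in KO lines, against 2135 and 1787 in cKO lines. The groups did not overlap, and KO line 2 lay close to cKO line 1. The log2 fold change was 0.43 ± 0.19 (SE), and it ran between 0.20 without KO line 1 and 0.66 without KO line 2. Another Spry4 probe set gave 1901 and 1101 in KO lines and 1040 and 455 in cKO lines, with a log2 fold change of 1.07 ± 0.40 (SE). One more was at 0.62 with overlapping groups, and a dim one was at -0.11. The probe sets of Spry4 thus had the same sign wherever they lay above the filter but differed in size.

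Of the 3 target transcription factors, Etv4 and Etv5 hardly differed between the groups, and Egr1 differed most between lines. Etv4, an ETS factor of the PEA3 family, had a signal of 1218 and 1213 in KO lines, against 1212 and 1070 in cKO lines. The groups were separated by less than 1 unit of signal, and the log2 fold change was 0.09 ± 0.15 (SE).

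Etv5, of the same family and long used as a readout of FGF activity in embryos, had a signal of 5577 and 4334 in KO lines, against 5500 and 4206 in cKO lines. Within each group line 1 was high and line 2 low, and the lines of equal number were nearly equal. The log2 fold change was 0.03 ± 0.18 (SE). Its 2 other probe sets were at -0.38 and -0.28 with overlapping groups, the mean of all 3 gave -0.21, and centring gave -0.02. With 1 array left out the value ran between -0.16 and 0.22.

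Egr1, an immediate-early zinc-finger factor whose transcript appears within minutes of ERK activation and is short-lived, had a signal of 1560 and 423 in KO lines, against 2191 and 903 in cKO lines. The groups overlapped, and on the log2 scale the lines of each group lay further apart than for any other of the 10 genes. The log2 fold change was -0.79 ± 0.62 (SE). It ran between -1.72 without KO line 1 and 0.15 without KO line 2, so this unpaired value rests on which line is kept. Between lines of equal number, KO minus cKO was -0.49 for line 1 and -1.08 for line 2.

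**Figure D2:**
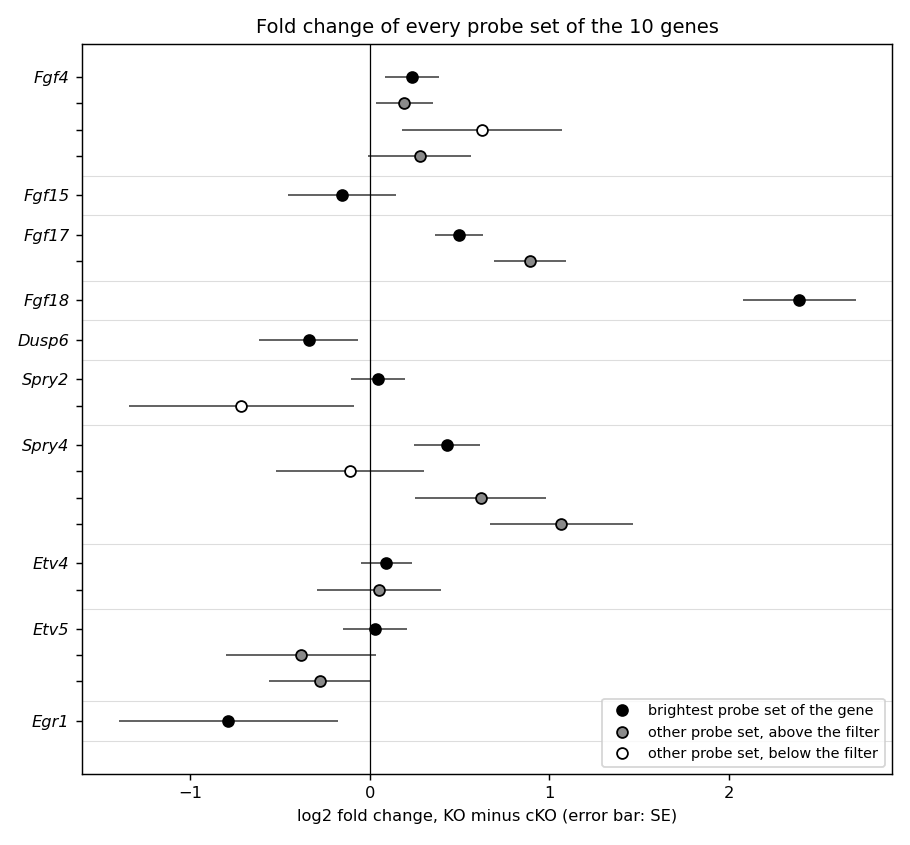
Log2 fold change, KO minus cKO, of each of the 21 probe sets of the 10 genes (horizontal axis; error bars, SE from the fit of every probe set on its own). Black points are the brightest probe set of a gene, grey points others above the filter and open points those below it. Fgf18 lies at 2.39, the probe sets of Fgf4 and Fgf17 all lie above 0, and those of Etv5 and Spry2 lie on both sides of 0.

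The lines of one genotype also differed from each other. Differences between lines of these arrays were among the earlier results known, so they too are given as a description. Egr1 was 3.68-fold higher in KO line 1 than in KO line 2, and for the cKO lines that ratio was 2.43. Of the 10916 genes tested, 5 were higher in line 1 by at least as much in both groups. They were Egr1, Dusp5, Tbx3, Slc6a17 and Zap70, the others named after their values were seen. Dusp5, an ERK-induced phosphatase that holds ERK in the nucleus, had line 1 higher by 2.78 in KO and 1.76 in cKO cells on the log2 scale. Its signal in KO line 2 (23.2) lay under the filter level, so the 2.78 rests on a dim value. Line 1 was higher in both groups for 7 of the 10 members and for 5 of the 6 inhibitors and transcription factors. Among 26 other ERK-responsive genes it was higher in both groups for 20, and among all genes tested for 37.3%.

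These counts moved with the scaling: after centring, the median of line 1 minus line 2 over all genes tested was -0.29 in KO and -0.23 in cKO cells, where it was 0.02 and 0.00 before. With every array centred on its median, line 1 was higher in both groups for 4 of the 10 members, 4 of the 6 inhibitors and transcription factors, 13 of the 26 other ERK-responsive genes and 11.2% of all genes. With quantile normalization the counts were 7, 5 and 18, beside 30.2% of all genes. Dusp6, Spry4, Etv5 and Egr1 had line 1 higher in both groups under all 3 scalings, though on the centred scale Spry4 and Etv5 only by 0.02 to 0.15, and Dusp6 by 0.56 in KO but 0.10 in cKO cells. On the uncentred log2 scale, 20 of the 26 responsive genes had line 1 higher in both groups and 2 had it lower in both. Both directions occurred among 4 immediate-early genes of that list, picked after their values were seen. Line 1 minus line 2 was 1.54 in KO and 1.33 in cKO cells for Fos, 0.11 and 0.14 for Junb, -0.18 and 0.86 for Egr3, and -0.63 and -0.61 for Ier3. The labels give only a number shared by a KO and a cKO line, and what the lines of one number had in common was not tested.

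**Figure D3:**
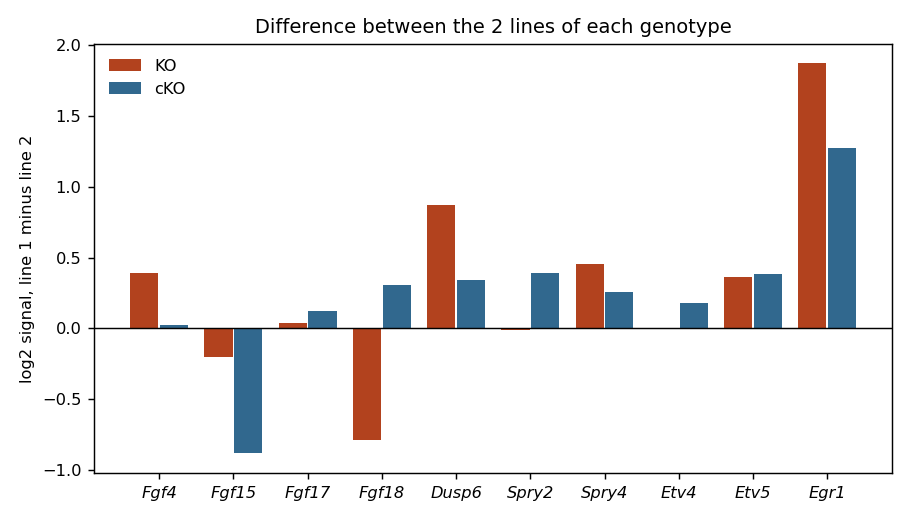
Log2 signal of line 1 minus line 2 (vertical axis) for the 10 genes, in KO (red, left bar) and cKO cells (blue, right bar); each bar is the difference of 2 arrays and has no error. Egr1 has the tallest bars in both groups (1.87 and 1.28), and Fgf18 has bars of opposite sign.

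For each member, the gene with the most similar profile was taken as the one with the smallest root mean square distance between centred log2 signals over the 4 arrays. Other members were left out, and clones and predicted genes were not named even where nearer. For Fgf18 the nearest gene so named was Krt17, a keratin, at a distance of 0.157, and 0 genes lay within 0.1. Krt17 had a signal of 655 and 884 in KO lines, against 180 and 122 in cKO lines. It shares with Fgf18 the order of the 4 arrays.

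For Egr1 the nearest gene was Ccn1, a secreted matrix protein and itself an immediate-early gene, at 0.221 and again with 0 genes within 0.1. Ccn1 had a signal of 1814 and 752 in KO lines, against 3433 and 1372 in cKO lines, so line 1 was high in both groups. Fgf15 was nearest to Dll3, a Notch ligand, at 0.020, with 15 genes within 0.1, and Dusp6 to the cell cycle kinase gene Cdk2 at 0.017, with 40. The flatter members had many near neighbours, from 177 genes for Spry4 to 1501 for Etv4. Their nearest genes were Evi5l for Fgf4, Plekhb1 for Fgf17, Zfp105 for Spry2, Dennd4a for Spry4, Nt5c3b for Etv4 and Sp3 for Etv5. With 4 arrays, a near profile is a description of these samples.

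The rest of the FGF and ERK pathway was described from lists of 115 other genes, of which 105 had a probe set and 79 lay above the filter. In limma 0 of the 79 were called higher and 4 were called lower: the co-receptor Gpc4, the inhibitors Dusp9 and Spred3, and the responsive gene Dusp14. Over all genes tested 0.632% were higher and 1.57% lower. At an unadjusted p under 0.05 the counts were 4 higher and 17 lower, beside 5.92% and 7.91% of all genes tested. Of the 79, 61 had a negative and 18 a positive log2 fold change, with a median of -0.25. Of all genes tested 48.6% were negative, and their median was 0.01. For Fgf1, Spred3 and Ets1, among the 79, the mean of a single group lay above the filter level.

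Of 14 other secreted FGF ligands, only Fgf1 was above the filter, and the other 13 had no signal above 140 on any array. Fgf1, which can bind every FGF receptor, had a signal of 240 and 185 in KO lines, against 92.4 and 61.6 in cKO lines. The groups did not overlap, but the difference did not pass the test (log2 fold change 1.42 ± 0.31, SE, limma adjusted p = 0.0771). With every array centred on its median it did (adjusted p = 0.0115), as it did without KO line 2 (0.0397) and without cKO line 1 (0.0455). Its cKO mean (77.0) lay under the filter level, so it was tested only through the KO group, where it is high. Fgf13, an intracellular FGF homologue that binds sodium channels, was at 244 and 248 in KO and 411 and 416 in cKO lines (log2 fold change -0.74, limma adjusted p = 0.103).

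Among 11 receptors and co-receptors, 1 was lower, 0 were higher and the median log2 fold change was -0.08. Gpc4, a glypican that carries heparan sulfate at the cell surface, had a signal of 964 and 750 in KO lines, against 2299 and 1902 in cKO lines. It fell by 1.29 ± 0.19 on the log2 scale (SE, limma adjusted p = 0.0228), and its second probe set was at -1.66. Of the receptors themselves, chosen as examples after their values were seen, Fgfr1 had 887 and 654 in KO lines and 1209 and 893 in cKO lines. Fgfr2 had 987 and 776 in KO lines and 591 and 478 in cKO lines. The groups did not overlap for either, with Fgfr1 at -0.45 (limma adjusted p = 0.457) and Fgfr2 at 0.72 (limma adjusted p = 0.146).

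Among 9 adaptors and 9 genes of the RAS-RAF-MEK-ERK cascade, 0 were called in either direction, with medians of -0.06 and -0.13. The smallest p-values were those of the RAS exchange factor Sos1 (log2 fold change 0.38, limma adjusted p = 0.333) and the adaptor Shc1 (-0.32, adjusted p = 0.429), and in the cascade of the scaffold Shoc2 (-0.59, adjusted p = 0.131) and the kinase Braf (-0.48, adjusted p = 0.284). None of these 4 passed the test.

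Other inhibitors of ERK signalling had more negative than positive values, with 2 of 22 lower, 0 higher, 17 negative and a median of -0.27. Dusp9, a phosphatase that acts on ERK, had a signal of 793 and 671 in KO lines, against 1764 and 1427 in cKO lines. It fell by 1.12 ± 0.18 on the log2 scale (SE, limma adjusted p = 0.0296), its 2 other probe sets were at -0.91 and -1.11, and without cKO line 1 the adjusted p was 0.059. Spred3, a Sprouty-related inhibitor, had 62.7 and 81.0 in KO lines and 196 and 228 in cKO lines and fell by 1.51 (limma adjusted p = 0.0483). Its KO mean lay under the filter level, and the call was lost without cKO line 1 (adjusted p = 0.108), without cKO line 2 (0.215), with no filter (0.126), with quantile normalization (0.0607) and with every probe set on its own (0.0550). Of the 79 pathway genes, 7 lie on the X chromosome, as Kdm6a does. Of these, Gpc4, Dusp9 and Fgf13 had the values above, and the other 4 ran between -0.13 and 0.90 (Elk1).

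Of 26 other ERK-responsive genes 1 was lower, 0 were higher, 23 were negative and the median was -0.39. Ets1, one of the 23, had a KO mean (62.4) under the filter level. It was thus kept only through its cKO values (mean 214). Dusp14, a dual-specificity phosphatase, had a signal of 261 and 243 in KO lines, against 1131 and 820 in cKO lines. It fell by 1.91 ± 0.20 on the log2 scale (SE, limma adjusted p = 0.0113). All 4 calls were lost without the trend of variance on signal, with adjusted p-values between 0.0503 and 0.0775. The 6 members that respond to ERK had a median near 0, with Spry4 at 0.43 and Egr1 at -0.79 as their extremes. Whether the members differ from these lists was not tested.

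**Figure D4:**
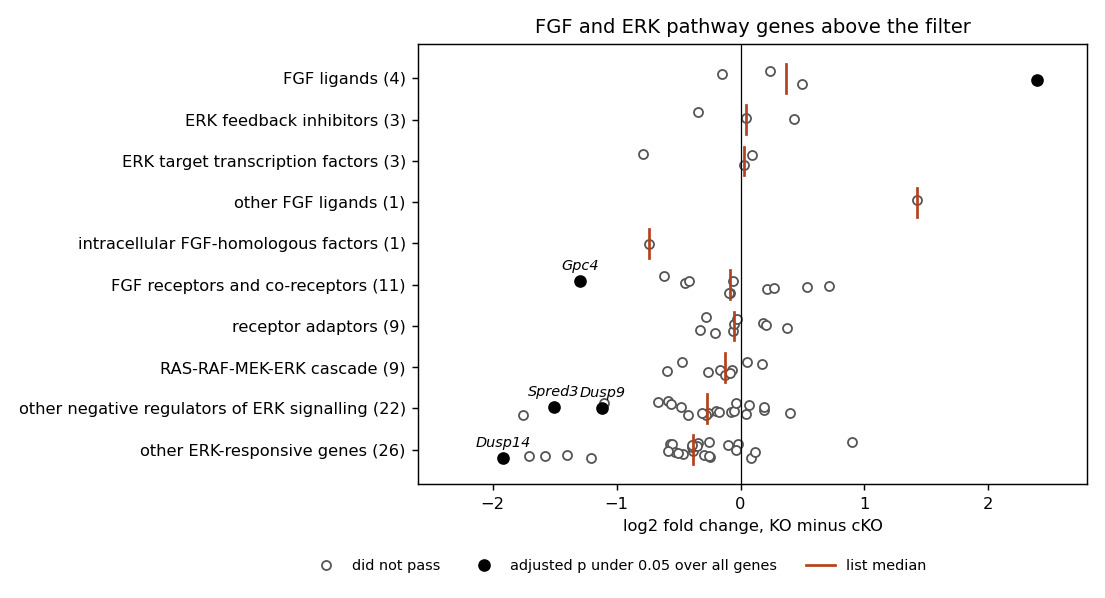
Log2 fold change, KO minus cKO, of each gene above the filter (horizontal axis) by list, with the number of genes in brackets. The top 3 rows are the 10 members, filled points had an adjusted p under 0.05 in the fit over all genes, and the red line is the median of the list. Fgf18 lies far right of the other members, and the lists of other inhibitors (median -0.27) and responsive genes (-0.39) lie mostly left of 0.

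Markers of other cells differed between the groups as well. Of 18 markers of feeder fibroblasts, 17 had a probe set and 11 lay above the filter. All 11 had a negative log2 fold change (median -1.20), with 3 called lower (Tagln, Col5a1 and Thy1) and 0 higher in limma. For Col3a1, Postn and Dcn the KO mean lay under the filter level, so these were kept only through their cKO values. Summed over the 17, the signal was 8156 and 9121 in KO lines, against 23176 and 16080 in cKO lines. Tagln and Acta2 made up most of this sum, and the other 15 summed to 1763 and 1843 in KO lines and 4096 and 2778 in cKO lines. Both sums were thus higher in the cKO lines, while Prrx1, one of the dim markers, was higher in both KO lines (60.1 and 53.8, against 30.7 and 31.0 in cKO lines). The summed signal of 10 trophectoderm markers was 8282 and 5870 in KO lines and 19520 and 14027 in cKO lines, with 2 of 6 tested lower (Krt8 and Krt18). These 2 keratins made up most of each sum. The other 8 summed to 2917 and 1918 in KO lines and 2144 and 1468 in cKO lines. Most of that was Tfap2c, picked after its values were seen (2186 and 1412 in KO lines, 1346 and 766 in cKO lines). Of the 6 tested, 4 had a negative and 2 a positive log2 fold change. The summed signal of 12 primitive endoderm markers was 2638 and 2496 in KO lines and 4477 and 3216 in cKO lines. Of 3 tested, Lama1 was called higher and Col4a1 lower, and Dab2 did not pass (log2 fold change -1.34, limma adjusted p = 0.0576). Summed over 10 pluripotency markers, the signal was 102188 and 93936 in KO lines and 88005 and 88115 in cKO lines. Limma called 0 of the 10. Gata4, Gata6, Sox17, Cdx2 and Elf5 were among the markers below the filter, and without detection calls their presence was not tested. The endoderm markers Cubn and Foxa2, picked after their values were seen, were also below it. Cubn was at 64.9 and 3.21 in KO lines and 269 and 214 in cKO lines. Foxa2 had the higher mean in KO cells (59.8, against 47.9 in cKO cells). The part of such cells in the lower pathway genes, or in the higher Fgf18, was not tested.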

How the data were processed

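RNA of 4 ES cell lines (2 KO, 2 cKO) was measured on Affymetrix Mouse Genome 430 2.0 arrays, 1 per line, and sample titles gave group and line number. The deposited values are linear intensity values, a signal for each probe set and array that the authors computed, per the submitters' processing notes, with MAS5. Its version and settings are not given in the sources used here. Detection calls were not used here, so the number of arrays and the dimness of a probe set limit the precision.

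Probe sets naming 1 gene (34945) were used, with symbols from the platform annotation updated through a RefSeq gene table (GRCm38.p6). The probe set of highest mean log2 signal stood for a gene, and the lower 40% of genes by that mean (7277) were left out. Signals became log2(signal + 4.79), the 10th percentile of all values, so fold changes of dim genes are understated. Differences of KO from cKO were fitted in R 4.3.3 by limma 3.58.1 (eBayes with a trend, 2 residual and 5.13 prior degrees of freedom), with Benjamini-Hochberg adjustment over all 10916 genes. Fits were tried on simulated data with independent noise and no difference shared by lines of equal number. That setting does not cover the line differences of these arrays. Python 3.11.15 with pandas 2.3.3, numpy 2.4.6 and matplotlib 3.10.9 served for summaries and plots.

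The members, gene lists and alternatives were chosen with earlier results of these data known. Genes named are the members, Kdm6a, the nearest profile of each member and, per list, up to 4 called genes of largest change or else the 2 of smallest p; others are marked as chosen after their values were seen. Of the 115 other pathway genes, 10 were not analysed here, nor was 1 of the 18 feeder markers. Promoter windows were searched for 5 of the 10 members. Member windows on chromosome 18, where Spry4 and Egr1 lie, were left out of the search. Alternatives tried were a pseudocount of 1 or of the 25th percentile, a filter on the lower 60% or none, centring on the median or quantile normalization, averaged or separately fitted probe sets, no variance trend, the line number as a replicate block, a threshold of 0.1 and each array left out.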

Additional observations from a re-analysis of the deposited data

How the results depend on the processing

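Over all genes tested 240 were called, and 328 with centred arrays, with 81.1% of the calls lower, where the share without centring was 71.3%. This share was 58.8% without cKO line 1 and 58.9% in the fit with the line number as a replicate block. The count was 147 with no filter, 154 with the lower 60% left out, 129 with the mean of probe sets, 28 without the variance trend, 428 at an adjusted p under 0.1, and between 228 and 432 with 1 array left out, the highest without KO line 1. With the replicate block it was 1048. Lines of equal number deviated together (r = 0.52 between the line 1 minus line 2 differences of KO and cKO cells over all genes tested), but the labels give only a shared number.

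Of the members 1 was called. The count was 0 with the lower 60% left out, which removes Fgf18, and 0 without the trend in limma (2 at an unadjusted p under 0.05). It was 4 with the replicate block (Fgf17, Fgf18 and Spry4 higher, Egr1 lower). In that fit 1048 of the 10916 genes tested were called, 431 higher and 617 lower, and nothing is read from the member count. The median of the members (0.07) ran between 0.047 and 0.23 with 1 array left out, highest without cKO line 1, and was -0.04 with the mean of probe sets.

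Of the other pathway genes 4 were called, all lower. The count was 10 with centred arrays (1 higher, 9 lower), 0 without the trend in limma (21 at an unadjusted p under 0.05), 18 with the replicate block (2 higher, 16 lower, with Fgf1, Fgf13 and Shoc2 among them; Kdm6a, on none of the lists, passed too) and between 3 and 10 with 1 array left out (10 without KO line 1, 8 without cKO line 2). Where no construction of an alternative shows it, the cause of a change was not tested. With 1 array left out, the lone line of a group was assumed to vary like the other group.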

Other observations

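Of the FGF ligands left out as dim, Fgf5 and Fgf8 stood out, and both were picked after their values were seen. Fgf5, a ligand known to be switched on as pluripotent cells move towards the epiblast, had a signal of 30.0 and 23.6 in KO lines, against 131 and 119 in cKO lines. The groups did not overlap, and in a fit of all genes with no filter the log2 fold change was -2.04 ± 0.40 (SE, limma adjusted p = 0.101). Fgf8, known from the primitive streak, had 7.68 and 28.7 in KO lines and 140 and 40.8 in cKO lines, with 1 high cKO line (log2 fold change -1.99 ± 0.73, SE, limma adjusted p = 0.407). Neither passed the test, and both lie at levels where MAS5 signals are noisy.

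Among the inhibitors, Errfi1, which acts on EGF receptors, was the next after the called genes and was also picked after its values were seen. It had 676 and 564 in KO lines, against 1579 and 1117 in cKO lines, with no overlap (log2 fold change -1.10, limma adjusted p = 0.0512). Dusp5 had 188 and 23.2 in KO lines and 452 and 130 in cKO lines, so that the groups overlapped (log2 fold change -1.76, limma adjusted p = 0.483).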
